A study of Homo sapiens with 12 samples.

Results

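The genes described here are 10 genes of heme breakdown and iron handling, out of 57815 genes with a value in each of the 12 RNA sequencing libraries. They were chosen by name, and all 10 were found through their Ensembl identifiers and were expressed highly enough to be tested in every cell line. HMOX1 and HMOX2 encode the heme oxygenases, BLVRA and BLVRB the biliverdin reductases, and FTL and FTH1 the light and heavy chains of ferritin. TFRC encodes transferrin receptor 1, SLC40A1 the iron exporter ferroportin, FECH ferrochelatase, and ABCB6 a transporter linked to porphyrin movement.

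The libraries came from 3 non-small cell lung cancer (NSCLC) cell lines with a KEAP1 mutation, namely A549 and H2023 (lung adenocarcinoma) and H460 (large cell carcinoma). Each line received control siRNA or NRF2 siRNA, and RNA was collected 48 h after transfection, giving 6 groups of 2 libraries. KEAP1 holds the transcription factor NRF2 (gene NFE2L2) in check, so that all groups, controls included, carry the KEAP1 lesion, and the control cells are the state with active NRF2. Control libraries are biological duplicates, whereas the libraries with NRF2 siRNA differ in the siRNA used, which was number 28 for library 0 and number 30 for library 1, so that their spread holds both biological variation and the difference between siRNAs. The A549 libraries were made after removal of ribosomal RNA and those of the other lines from polyA RNA, so levels in A549 are not compared with levels in the other lines, and line and protocol cannot be told apart there.

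Heme is opened by heme oxygenase into biliverdin, carbon monoxide and free iron, and biliverdin reductase turns biliverdin into bilirubin. The iron that is set free is either stored inside the ferritin shell, whose heavy chain oxidizes iron and whose light chain helps the mineral core to form, or leaves the cell through ferroportin. Ferrochelatase acts in heme synthesis, by inserting iron into protoporphyrin. NRF2 binds as a heterodimer with a small MAF protein to antioxidant response elements (AREs), and HMOX1 and the ferritin genes are textbook targets. Ferritin and transferrin receptor messages are also regulated by iron regulatory proteins, which bind iron-responsive elements (IREs) in the RNA.

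Regulatory sequences are given first, as letters that match motifs of NRF2 in DNA and of iron regulatory proteins in RNA. Reference promoters, the 250 bases before a start site, were found in RefSeq (GRCh38.p14) for 8 of the 10 genes. HMOX1 and FTH1 were not among them. The ARE core TGACNNNGC was searched on both strands of the promoters with the 50 bases after the start, and it matched in ABCB6 and in FECH and in no other of the 8 genes. It also matched in 13.3% of all 35116 promoters of the table. A longer site of NRF2 and small MAF proteins, whose reverse complement contains the core, matched in none of the 8 and in 0.154% of all promoters. In the following 2 promoters the capitals mark the ARE core, which lies at position -152 in ABCB6 on the plus strand of the gene and at position -38 in FECH on its opposite strand, so that the FECH letters are the reverse complement.
ABCB6 promoter, chr2:219218959-219219208, minus strand: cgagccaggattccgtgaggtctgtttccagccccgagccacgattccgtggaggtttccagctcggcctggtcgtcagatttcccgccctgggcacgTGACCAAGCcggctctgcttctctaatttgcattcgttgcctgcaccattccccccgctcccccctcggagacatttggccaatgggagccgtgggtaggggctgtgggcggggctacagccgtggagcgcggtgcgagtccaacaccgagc
FECH promoter, chr18:57586703-57586952, minus strand: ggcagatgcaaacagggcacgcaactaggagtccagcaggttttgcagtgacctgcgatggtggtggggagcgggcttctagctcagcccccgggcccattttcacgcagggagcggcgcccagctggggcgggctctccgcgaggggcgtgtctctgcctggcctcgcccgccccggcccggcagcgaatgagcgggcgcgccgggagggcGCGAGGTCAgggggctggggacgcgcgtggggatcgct
The start of the FTL message holds the loop of its IRE, marked by capitals, which begins 39 bases from the start and is shown because FTL had the largest difference of the 10 genes in every line. The letters CAGTG were found in the first 50 bases after the start in 6.48% of all promoters of the table.
FTL IRE, chr19:48965335-48965358, plus strand: ctcttgcttcaaCAGTGTttggac
These matches describe letters only, and binding was not measured in the libraries used here. DNA outside these windows was not searched, so a gene without a match may still have an ARE elsewhere.

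Values are FPKM, the number of fragments of a gene scaled to the length of its transcript and to the total of mapped fragments. Relative depth within a line lay between 92.7% and 107% of its first control library, and 12732 to 13909 genes reached 1 FPKM. NFE2L2, the gene targeted by the siRNAs, was between 30.9 and 144 FPKM in the 6 control libraries and between 5.31 and 12.2 FPKM in the 6 NRF2 siRNA libraries, with no overlap between the arms, so some NFE2L2 message remained. Of the epithelial markers, KRT8 and KRT18 were at 298 FPKM or more in every library, KRT19 at 7.28 FPKM or more, and EPCAM at 0.222 to 23.7 FPKM, with the H460 libraries at the low end. PTPRC (at most 0.470 FPKM), ALAS2 (at most 0.103 FPKM), HBA1 (at most 0.720 FPKM) and HBB (at most 3.35 FPKM) were low, whereas CD68, a lysosomal protein gene used as a macrophage marker, was at 14.0 to 57.7 FPKM. The markers were not level between the arms. With control siRNA and NRF2 siRNA, in that order, mean KRT8 was 1389 and 3010 FPKM in H2023, and 613 and 1357 FPKM in H460, and mean KRT18 was 795 and 1574 FPKM in H2023, and 299 and 451 FPKM in H460, each with the arms apart. KRT19 was apart in A549, at 10.2 and 22.1 FPKM. Mean CD68 was 14.8 and 28.6 FPKM in A549 and 37.9 and 22.9 FPKM in H460, also apart. None of these differences passed in limma within a line (adjusted p of 0.0808 or more), EPCAM overlapped in every line, and the part of these markers in the results below was not tested. Transcripts of the mitochondrial genome took 0.892% to 26.0% of the FPKM sum and were higher with NRF2 siRNA than with control siRNA of the same number in H2023 and H460, and scaling without them moved the median log2 difference of all genes from -0.01 to 0.15 in H460 and from 0.02 to 0.11 in H2023. The differences between lines and arms below are given on the deposited scale.

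With NRF2 siRNA, 3 of the 10 genes fell in A549 (HMOX1, FTH1 and ABCB6), 3 in H2023 (BLVRB, FTL and ABCB6) and 5 in H460 (HMOX1, FTL, FTH1, FECH and ABCB6), so that ABCB6 was the one gene past the threshold in all 3 lines. No gene of the list was called higher in any line. In such bulk libraries, fewer cells that hold a transcript and less of it per cell cannot be told apart. A gene was called at an adjusted p under 0.05 in limma on log2(FPKM + 1), with Benjamini-Hochberg adjustment over all genes tested in that line. Over all genes, 0.554% were called lower and 0.122% higher in A549, 0.583% lower and 0.327% higher in H2023, and 6.86% lower and 7.12% higher in H460. The 10 genes had median log2 differences of -0.96 (A549), -1.16 (H2023) and -0.88 (H460), against 0.02, 0.02 and -0.01 over all genes tested. At an unadjusted p under 0.05 the lower genes of the list were 7, 6 and 7, and the higher ones 0, 0 and 1, the last being BLVRA in H460, where 4.99%, 6.68% and 16.7% of all genes were lower and 8.27%, 10.2% and 17.0% higher at that threshold. With no filter on low values, 0 of the 10 genes passed in any of the 3 lines, as did 0% of all genes. The counts moved when 1 library was left out, which leaves 3 libraries and 1 residual degree of freedom in a line. An arm then holds 1 library, and the spread comes only from the 2 libraries of the other arm. A test without an siRNA library thus holds no spread between knockdown libraries. A pass there does not replace the test of all libraries of the line. In A549 the count of lower genes was 0 without control library 0 and 5 without the siRNA 28 library. In H2023 it was 0 without either control library and 6 without the siRNA 30 library, and in H460 it was 0 without either control library and 8 without the siRNA 30 library. In H460, 1 gene was called higher without the siRNA 28 library (SLC40A1) and 1 without the siRNA 30 library (BLVRA), where 10.8% and 7.94% of all genes were called higher. The calls over all genes moved too, from 0.176% lower without A549 control library 0 to 1.43% without its siRNA 28 library, from 0% and 0.0802% without an H2023 control library to 4.78% without its siRNA 30 library, and from 0% and 0.0305% without an H460 control library to 9.92% without its siRNA 30 library. How far the log2 differences moved depended on the gene and the library. Without an H2023 control library FTL was at -3.38 or -3.76, BLVRB at -1.46 or -1.78 and ABCB6 at -1.77 or -1.88. Without an H460 control library HMOX1 was at -2.31 or -2.07. Without the siRNA 28 or the siRNA 30 library of H460, in that order, FTL was at -2.37 or -5.10 and TFRC at -0.26 or -1.37. In the same order BLVRB was at -0.39 or -1.16 and SLC40A1 at 1.77 or 0.37. HMOX1 (-2.38 or -1.99) and ABCB6 (-0.92 or -0.95) moved less there.

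Separation of the libraries gave a similar picture without a model. In A549 both NRF2 siRNA libraries lay below both control libraries for 7 of the 10 genes and above them for none, where 20.5% and 25.2% of all genes did so. In H2023 these numbers were 7 and 0 genes, against 22.0% and 27.0% of all genes. In H460 they were 8 and 2 genes, against 31.6% and 31.1% of all genes, and the pair above the controls was BLVRA and SLC40A1.

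**Figure D1:**
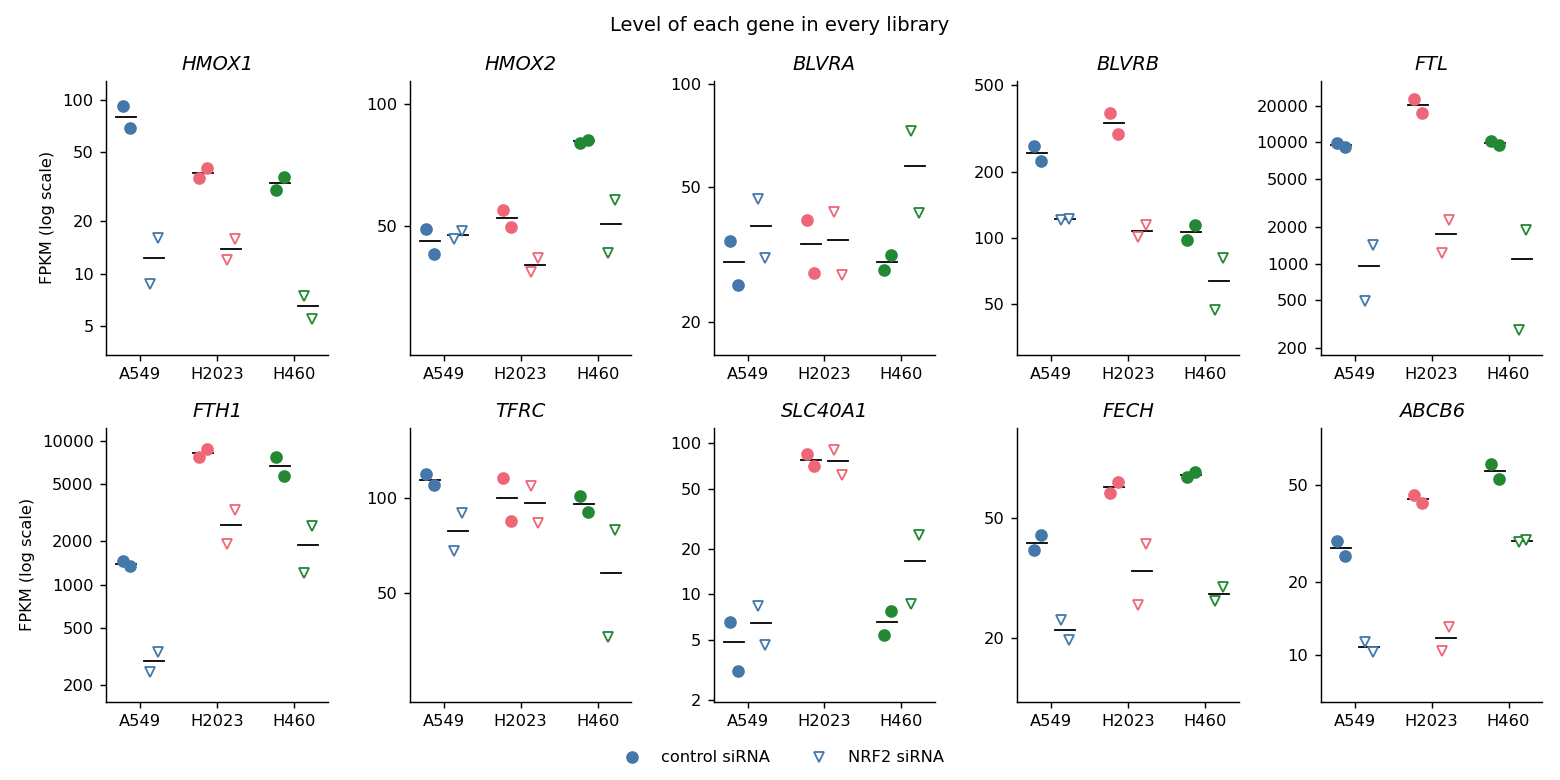
FPKM of the 10 genes in every library on log axes, by cell line, with filled circles for control siRNA, open triangles for NRF2 siRNA and a bar for the group mean of 2 libraries. HMOX1, BLVRB, FTL, FTH1, FECH and ABCB6 have both triangles below both circles in all 3 lines, whereas BLVRA overlaps in A549 and H2023 and SLC40A1 in the same lines.

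Of the heme oxygenases, HMOX1 passed in A549 and H460 and HMOX2 in no line. HMOX1 is the inducible enzyme, and it lies on chromosome 22 from 35776354 to 35790207 (plus strand, GRCh37, as for the positions of the whole genes that follow, which were not resolved into exons). In A549, HMOX1 was at 91.3 and 68.6 FPKM in the control libraries and at 8.75 and 16.0 FPKM with siRNA 28 and siRNA 30. In H2023 it was at 35.3 and 40.3 FPKM with control siRNA and at 12.01 and 15.8 FPKM with siRNA 28 and siRNA 30. In H460 the controls were at 30.2 and 35.8 FPKM, and the knockdown libraries at 7.51 and 5.50 FPKM. No NRF2 siRNA library reached the lower control library of its line. The group means amount to a 6.46-fold, 2.71-fold and 5.07-fold lower HMOX1 level in A549, H2023 and H460. HMOX1 fell by 2.64 ± 0.30 on the log2 scale in A549 (SE, limma adjusted p = 0.0316) and fell by 2.19 ± 0.26 in H460 (adjusted p = 0.0141), while its log2 difference in H2023, -1.39 ± 0.21, did not pass (adjusted p = 0.0634). The A549 call of HMOX1 was lost without control library 0 (-2.43). The H2023 difference of HMOX1 was -1.20 without the siRNA 28 library and -1.57 without the siRNA 30 library.

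HMOX2, the constitutive enzyme, is on chromosome 16 from 4524691 to 4560348 (plus strand) and overlaps NMRAL1 on the opposite strand over 21074 bases. NMRAL1 was at 34.3 to 65.9 FPKM, a level near that of HMOX2. The libraries were strand-specific, but whether strand was used for the FPKM values is not given in the sources used here, so reads of these genes may not be told apart. The A549 libraries of HMOX2 mixed, with 49.2 and 42.8 FPKM for control siRNA and 46.4 and 48.5 FPKM for siRNA 28 and siRNA 30. The H2023 libraries had 54.7 and 49.8 FPKM with control siRNA against 38.5 and 41.6 FPKM, and those of H460 80.4 and 81.6 FPKM against 43.0 and 58.1 FPKM. The groups were thus apart in H2023 and H460 and overlapped in A549. The log2 differences of HMOX2 were 0.05 ± 0.14 (95% interval -0.30 to 0.39), -0.37 ± 0.16 and -0.69 ± 0.23 in A549, H2023 and H460, with limma adjusted p of 0.918, 0.317 and 0.0960. The H460 difference of HMOX2 was -0.90 without the siRNA 30 library and -0.47 without the siRNA 28 library. It passed in 1 fit of all 12 libraries (limma adjusted p = 0.0108). Scaled without mitochondrial transcripts, the A549 value of HMOX2 was -0.06. The ratio of HMOX1 to HMOX2 FPKM, a comparison per length within a library, went from 1.73 ± 0.177 to 0.259 ± 0.10 in A549, from 0.728 ± 0.116 to 0.346 ± 0.0484 in H2023 and from 0.407 ± 0.0441 to 0.135 ± 0.0565 in H460 (SD, n = 2 each). HMOX1 exceeded HMOX2 in level in the A549 control libraries, and in no other group did it do so.

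Of the biliverdin reductases, BLVRB passed in H2023 and BLVRA in no line, and the difference between these genes was not tested. BLVRB, which reduces flavins and certain biliverdin isomers, is on chromosome 19 from 40953672 to 40971671 (minus strand). In A549 BLVRB was at 265 and 226 FPKM with control siRNA and at 121 and 123 FPKM with siRNA 28 and siRNA 30. In H2023 the values were 374 and 299.6 FPKM against 102 and 115 FPKM, and in H460 98.0 and 115 FPKM against 47.1 and 81.0 FPKM. Control and knockdown libraries did not overlap in any line. BLVRB fell by 1.62 ± 0.18 in H2023 (log2, SE, limma adjusted p = 0.0336). Its differences of -0.996 ± 0.14 in A549 (adjusted p = 0.0712) and -0.77 ± 0.30 in H460 (adjusted p = 0.131) did not pass, although the A549 value passed with scaling by the median of ratios (adjusted p = 0.0376), and the H2023 value did not pass without a trend in the prior variance (adjusted p = 0.0623). The H460 difference of BLVRB was -1.16 without the siRNA 30 library and -0.39 without the siRNA 28 library. It passed in 1 fit of all 12 libraries (limma adjusted p = 0.0295).

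BLVRA, which produces the common form of bilirubin, lies on chromosome 7 from 43798279 to 43846941 (plus strand). It was at 34.5 and 25.7 FPKM in A549 controls against 45.9 and 30.9 FPKM with siRNA 28 and siRNA 30, and at 40.0 and 27.8 FPKM in H2023 controls against 42.1 and 27.6 FPKM. These groups overlap. In H460 BLVRA was at 28.5 and 31.6 FPKM with control siRNA and at 72.9 and 41.9 FPKM with the siRNAs, which is apart. Its log2 difference there was 0.86 ± 0.30 (limma adjusted p = 0.103). It was 1.25 without the siRNA 30 library and 0.47 without the siRNA 28 library. The differences of 0.33 ± 0.24 in A549 and 0.03 ± 0.28 in H2023 had adjusted p of 0.621 and 0.971, and the H2023 value was -0.27 without the siRNA 28 library and -0.22 without control library 1. BLVRA was the gene for which siRNA 28 was above siRNA 30 in all 3 lines.

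Of the 10 genes FTL had the largest differences. It is a short gene on chromosome 19 from 49468566 to 49470136 (plus strand). In A549 it was at 9933 and 9096 FPKM with control siRNA and at 487 and 1415 FPKM with siRNA 28 and siRNA 30. In H2023 FTL was at 22785 and 17475 FPKM with control siRNA and at 1227 and 2303 FPKM with the siRNAs. The H460 libraries had 10216 and 9390.0 FPKM against 284 and 1896 FPKM. The group means were 10.0-fold, 11.4-fold and 8.99-fold lower with NRF2 siRNA in A549, H2023 and H460. In the control libraries FTL ranked 9 in both A549 libraries, 1 and 2 in H2023, and 2 and 3 in H460 among all genes by FPKM. With siRNA 28 it ranked 206 in A549, 41 in H2023 and 314 in H460, and with siRNA 30 it ranked 63, 23 and 46. FTL fell by 3.57 ± 0.36 in H2023 (log2, SE, limma adjusted p = 0.0298) and fell by 3.74 ± 0.83 in H460 (adjusted p = 0.0365), and the A549 difference of -3.52 ± 0.49 had an adjusted p of 0.0662. The siRNA libraries set the spread, and without the siRNA 28 library the H460 difference was -2.37. In A549 the FTL difference was -2.75 without the siRNA 28 library and -4.28 without the siRNA 30 library.

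FTH1, on chromosome 11 from 61727190 to 61735106 (minus strand), overlaps BEST1 on the opposite strand, and BEST1 reached at most 9.62 FPKM. In A549 FTH1 was at 1452 and 1354 FPKM with control siRNA and at 245 and 339 FPKM with siRNA 28 and siRNA 30. In H2023 it was at 7714 and 8790.2 FPKM against 1906 and 3319.6 FPKM. The H460 libraries had 7796 and 5683 FPKM against 1214 and 2578 FPKM. Every knockdown library was below every control library of its line, and the group means were 4.81-fold, 3.16-fold and 3.55-fold lower. FTH1 fell by 2.28 ± 0.20 in A549 (log2, SE, limma adjusted p = 0.0125) and fell by 1.91 ± 0.47 in H460 (adjusted p = 0.0453). Its difference in H2023 was -1.71 ± 0.32 (limma adjusted p = 0.102), and was -2.11 without the siRNA 30 library and -1.31 without the siRNA 28 library. The A549 call of FTH1 was lost without control library 0 (-2.23, adjusted p = 0.0738).

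Ferritin genes have many processed pseudogenes with near-identical sequence, and the files list 16 for FTL and 25 for FTH1. Together they came to 0.366% to 1.41% of the FTL value and 0.863% to 2.62% of the FTH1 value in a library, so reads placed in pseudogenes were few beside those of the parent genes. The FTL to FTH1 ratio was lower with NRF2 siRNA in every line. The ratio of FTL to FTH1 FPKM was 6.84 and 6.72 in the A549 control libraries and 1.99 and 4.18 with siRNA 28 and siRNA 30. It was 2.95 and 1.99 in the H2023 controls against 0.644 and 0.694, and 1.31 and 1.65 in the H460 controls against 0.234 and 0.736. No knockdown library reached a control library of its line in this ratio, and in H2023 and H460 the more abundant chain per length changed from light to heavy. Summed with their pseudogenes, the chains gave group means of 6.70, 2.46 and 1.47 with control siRNA and 3.05, 0.664 and 0.482 with NRF2 siRNA. The ratios of genes were formed with their values in view and are a description with no test.

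**Figure D2:**
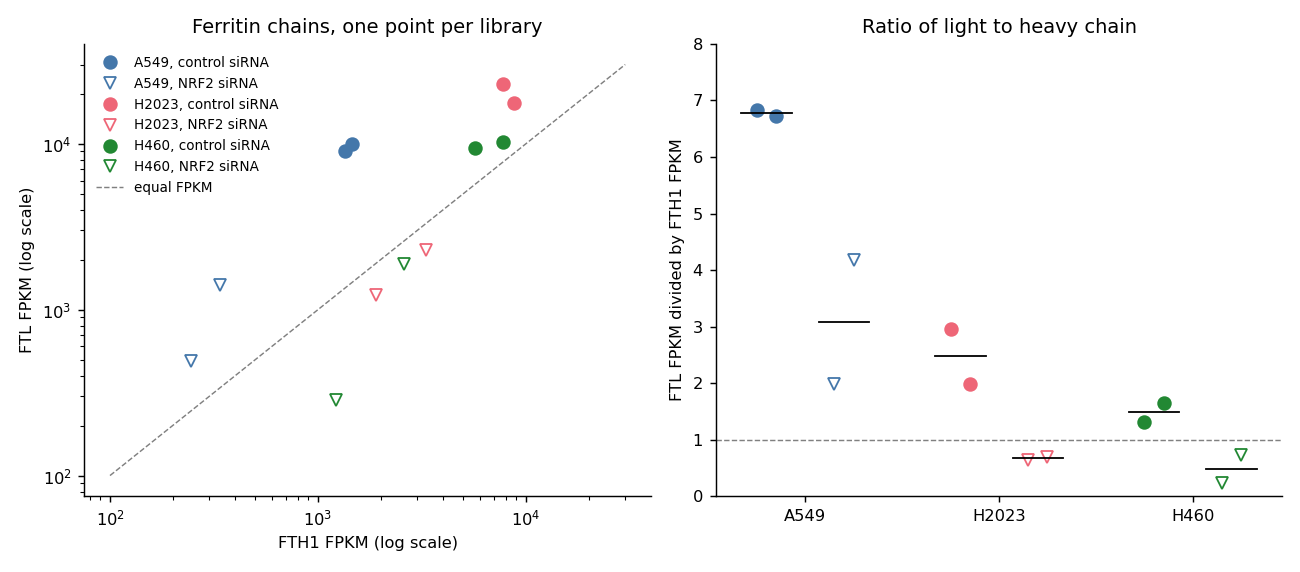
Left, FTL against FTH1 FPKM on log axes with one point per library and a dashed line at equal FPKM; right, the FTL to FTH1 ratio per library with bars at the group means of 2 libraries. The NRF2 siRNA points (open triangles) of H2023 and H460 lie below the line of equal FPKM, at ratios of 0.234 to 0.736, and their controls (filled circles) above it.

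The iron transport genes did not pass the threshold in any line with all libraries. TFRC, the main route of transferrin-bound iron into cells, is on chromosome 3 from 195739382 to 195809024 (minus strand). It was at 119 and 110.1 FPKM in A549 controls against 67.8 and 90.0 FPKM with siRNA 28 and siRNA 30, at 116 and 84.7 FPKM in H2023 controls against 109 and 83.6 FPKM, and at 101 and 90.4 FPKM in H460 controls against 36.3 and 79.5 FPKM. The groups were apart in A549 and H460 and overlapped in H2023. The log2 differences of TFRC were -0.55 ± 0.18, -0.05 ± 0.23 and -0.82 ± 0.37 in A549, H2023 and H460, with limma adjusted p of 0.292, 0.940 and 0.179, and the H2023 value was 0.05 when scaled without mitochondrial transcripts. In H460 TFRC was at -1.37 without the siRNA 30 library and at -0.26 without the siRNA 28 library. SLC40A1, on chromosome 2 from 190425316 to 190448484 (minus strand), was at 6.56 and 3.11 FPKM in A549 controls against 8.34 and 4.62 FPKM, at 85.4 and 70.1 FPKM in H2023 controls against 89.8 and 61.7 FPKM, and at 5.41 and 7.76 FPKM in H460 controls against 8.66 and 24.6 FPKM. Only in H460 were its groups apart, and there the siRNA 30 library was far above the other. The log2 differences of SLC40A1 were 0.38 ± 0.37, -0.05 ± 0.23 and 1.07 ± 0.48, with limma adjusted p of 0.719, 0.937 and 0.173, and scaling without mitochondrial transcripts turned the H2023 value to 0.04. In H460 SLC40A1 was at 1.77 without the siRNA 28 library and at 0.37 without the siRNA 30 library.

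Of the genes tied to heme synthesis and porphyrin transport, ABCB6 passed in every line and FECH in H460. FECH, the enzyme of the last step of heme synthesis, is on chromosome 18 from 55211609 to 55253964 (minus strand). It was at 39.0 and 43.8 FPKM in A549 controls against 22.9 and 19.6 FPKM with siRNA 28 and siRNA 30, at 60.7 and 66.1 FPKM in H2023 controls against 25.7 and 41.1 FPKM, and at 68.2 and 71.0 FPKM in H460 controls against 26.5 and 29.5 FPKM. The groups were apart in each line. FECH fell by 1.29 ± 0.21 in H460 (log2, SE, limma adjusted p = 0.0215), and its differences of -0.93 ± 0.15 in A549 and -0.94 ± 0.25 in H2023 had adjusted p of 0.0918 and 0.174. Without the siRNA 28 library FECH was at -1.04 in A549 and -0.61 in H2023, and without the siRNA 30 library at -0.82 and -1.27.

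ABCB6, found in mitochondria and in other membranes, is on chromosome 2 from 220074494 to 220083716 (minus strand). In A549 it was at 29.5 and 25.6 FPKM with control siRNA and at 11.3 and 10.3 FPKM with siRNA 28 and siRNA 30. In H2023 it was at 45.5 and 42.1 FPKM against 10.4 and 13.1 FPKM. The H460 libraries had 61.5 and 53.3 FPKM against 29.1 and 29.7 FPKM. The siRNAs gave nearly the same ABCB6 level in A549 and H460. ABCB6 fell by 1.28 ± 0.15 in A549 (limma adjusted p = 0.0345), fell by 1.83 ± 0.19 in H2023 (adjusted p = 0.0302) and fell by 0.94 ± 0.21 in H460 (adjusted p = 0.0383), all log2 with SE. The A549 call was lost without control library 0 (-1.18, adjusted p = 0.209) or 1 (-1.38, adjusted p = 0.139). The H460 call was lost when values were scaled without mitochondrial transcripts (log2 difference -0.79, adjusted p = 0.0673) and without a trend in the prior variance (adjusted p = 0.0517).

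**Figure D3:**
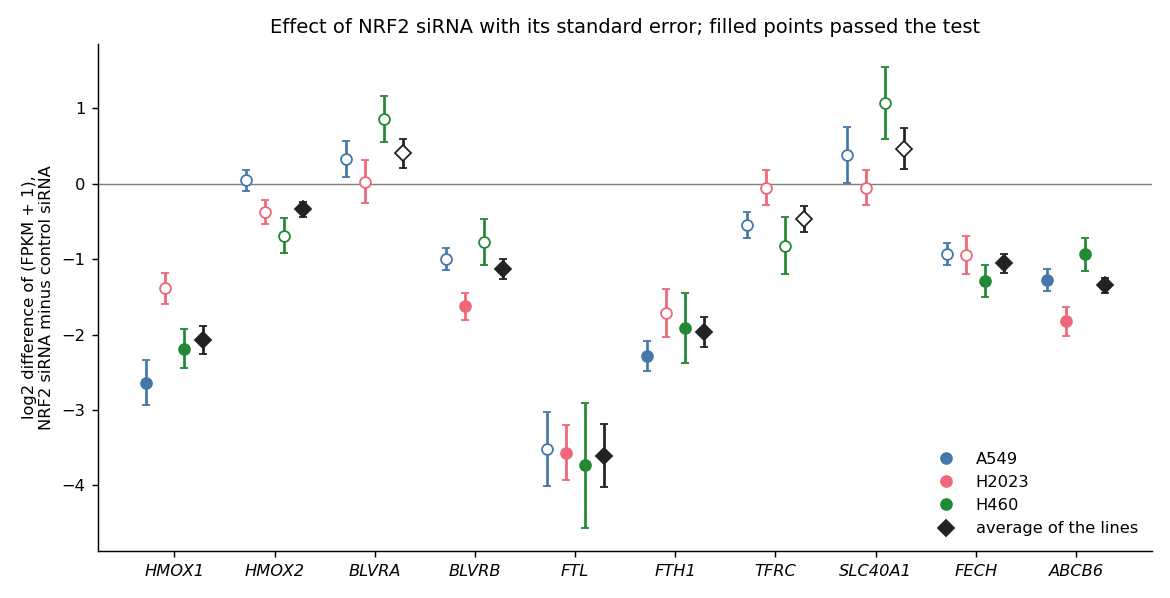
Log2 difference of (FPKM + 1), NRF2 siRNA minus control siRNA, for each gene in each line (circles) and averaged over the lines (diamonds), with the standard error as bar and filled symbols for an adjusted p under 0.05. FTL sits lowest in every line, at -3.52 to -3.74, and BLVRA, TFRC and SLC40A1 have no filled symbol.

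The average of the within-line differences was then tested in 1 fit of all 12 libraries. Here 7 of the 10 genes were lower and 0 higher, where 14.5% of all 11571 genes tested were lower and 15.1% higher, or 1676 and 1753 genes, which became 1176 and 1949 when values were scaled without mitochondrial transcripts. The average of FTL was -3.61 ± 0.42 (SE, limma adjusted p = 0.000270), followed by HMOX1 at -2.07 ± 0.19 (adjusted p = 6.08e-05) and FTH1 at -1.97 ± 0.20 (adjusted p = 0.000124). ABCB6 averaged -1.35 ± 0.10 (adjusted p = 1.91e-05), BLVRB -1.13 ± 0.13 (adjusted p = 0.000233) and FECH -1.05 ± 0.12 (adjusted p = 0.000314). The smallest called average was that of HMOX2, -0.34 ± 0.10 (adjusted p = 0.0254), which was not called when values were scaled without mitochondrial transcripts (-0.29, adjusted p = 0.0867) or without A549 control library 0 (-0.30, adjusted p = 0.0555), H2023 control library 0 or 1 (-0.32 and -0.36, adjusted p of 0.0981 and 0.0662) or H460 control library 0 or 1 (-0.34 and -0.33, adjusted p of 0.0899 and 0.0901). TFRC averaged -0.47 ± 0.17 (adjusted p = 0.0612), and passed without the siRNA 30 library of A549 (-0.54, adjusted p = 0.0378), the siRNA 28 library of H2023 (-0.54, adjusted p = 0.0388) or the siRNA 30 library of H460 (-0.66, adjusted p = 0.00590). The averages of the remaining genes were 0.41 ± 0.19 for BLVRA (adjusted p = 0.133) and 0.46 ± 0.27 for SLC40A1 (adjusted p = 0.222). At an unadjusted p under 0.05, 8 genes were lower and 0 higher, where 20.8% of all genes were lower and 20.8% higher. The median of the 10 averages was -1.09, against -0.01 over all genes. The count of lower genes lay between 6 and 8 when single libraries were left out, while 6.96% to 16.6% of all genes were called lower. Of the 10 genes, 1 was called higher without the siRNA 28 library of H460 (SLC40A1) and without its siRNA 30 library (BLVRA), as were 15.7% and 14.4% of all genes.

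Genes past the threshold in 1 line and not in another were not shown to differ between lines. In the F test of the difference in effect, 0 of the 10 genes passed, where 0.786% of all genes did, and 3 had an unadjusted p under 0.05, namely HMOX1, HMOX2 and ABCB6, with limma adjusted p of 0.207, 0.189 and 0.174. At that threshold 19.3% of all genes passed. The HMOX1 effect was 1.25 ± 0.40 less negative in H2023 than in A549 (SE, adjusted p = 0.430). The ABCB6 effect was 0.89 ± 0.28 less negative in H460 than in H2023 (adjusted p = 0.131). For FTL the pairs of lines differed by -0.05 (95% interval -2.02 to 1.92) between H2023 and A549, -0.22 (-2.47 to 2.03) between H460 and A549, and -0.17 (-2.66 to 2.32) between H460 and H2023, so differences of several-fold could not be resolved.

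The siRNAs were compared with each other within the lines. In the 6 NRF2 siRNA libraries 0 of the 10 genes differed, as 0 of 15716 genes tested did, that is 0% of genes. At an unadjusted p under 0.05, 2 genes were lower and 1 higher with siRNA 28, where 7.08% of all genes were lower and 11.1% higher. FTL was lower with siRNA 28 than with siRNA 30 by 1.73 ± 0.35 on the log2 scale, a difference written as -1.73 ± 0.35 (SE, limma adjusted p = 0.137). FTH1 differed by -0.78 ± 0.18 (adjusted p = 0.160) and BLVRA by 0.64 ± 0.12 (adjusted p = 0.133). In 1 fit of all 12 libraries, which borrows the spread of the controls, FTL and FTH1 passed, with adjusted p of 0.00869 and 0.0492, as did 9.22% of all genes. Both effects of a line share its control libraries. Against the control mean of the line, the log2 differences of FTL with siRNA 28 were -4.28, -4.02 and -5.10 in A549, H2023 and H460, and those with siRNA 30 were -2.75, -3.11 and -2.37. For FTH1 they were -2.51, -2.11 and -2.45 (siRNA 28) and -2.05, -1.31 and -1.37 (siRNA 30). siRNA 28 thus gave the lower level of both ferritin chains in 3 of 3 lines, and this also held for HMOX2 and BLVRB. For NFE2L2 itself the difference between siRNA 28 and siRNA 30 was -0.38 ± 0.23 (limma adjusted p = 0.438). Whether the remaining NFE2L2 or another target of an siRNA moves ferritin was not tested.

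**Figure D4:**
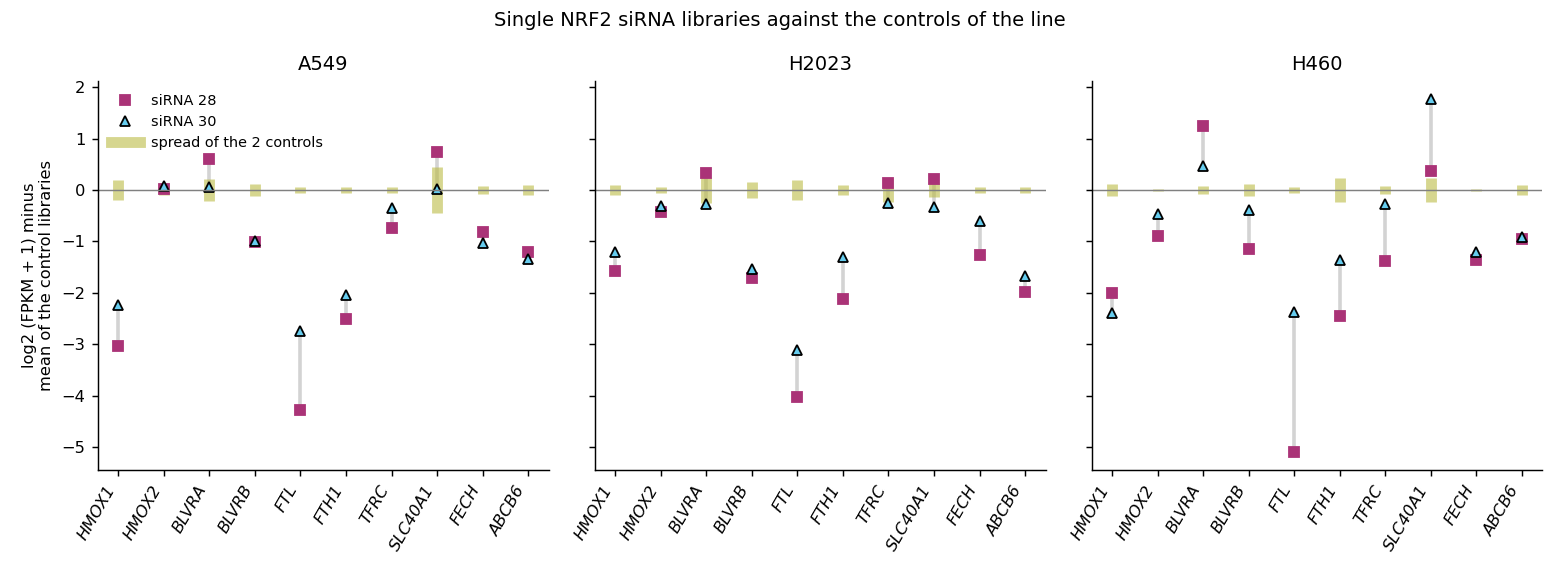
Log2 (FPKM + 1) of the siRNA 28 library (squares) and the siRNA 30 library (triangles) minus the mean of the 2 control libraries, whose spread is the pale bar, for each gene in A549, H2023 and H460. FTL has the widest gap between siRNAs, from -5.10 to -2.37 in H460, whereas the siRNAs give nearly the same value for ABCB6 in A549 and H460.

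With control siRNA, FTL, FTH1 and BLVRB had the highest levels per length of the 10 genes in each line, in that order, and the libraries of neighbours in this order did not overlap except those of BLVRB and TFRC in H460. FTL was at 9515 ± 592 FPKM in A549, 20130.3 ± 3755 FPKM in H2023 and 9803 ± 584 FPKM in H460 (SD, n = 2 each). The lowest level was that of SLC40A1 in A549 (4.83 ± 2.44 FPKM) and H460 (6.58 ± 1.66 FPKM). In H2023 SLC40A1 was instead at 77.8 ± 10.8 FPKM and overlapped TFRC (100.4 ± 22.1 FPKM), and the lowest genes were BLVRA (33.9 ± 8.61 FPKM) and HMOX1 (37.8 ± 3.53 FPKM), which overlapped each other. H2023 and H460, which share the polyA protocol, were compared directly in their 8 libraries. Of the 10 genes, 1 was lower and 2 were higher in H2023, where 16.6% of 15282 genes were lower and 18.0% higher, or 2541 and 2744 genes (1732 and 3527 when scaled without mitochondrial transcripts). These shares are close to those of the list. SLC40A1 was higher in H2023 by 3.39 ± 0.43 on the log2 scale (SE, limma adjusted p = 0.00104) and BLVRB by 1.65 ± 0.27 (adjusted p = 0.00311). HMOX2 was lower in H2023, with a log2 difference of -0.62 ± 0.19 (adjusted p = 0.0366), which was -0.41 (adjusted p = 0.120) when scaled without mitochondrial transcripts and was not called without H2023 control library 0 or 1 or without H460 control library 0 or 1. FTL differed by 1.03 ± 0.77 (limma adjusted p = 0.336). The same difference passed without the siRNA 28 or the siRNA 30 library of H460, where the spread between these libraries drops out of the fit.

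Other genes of heme and iron metabolism were taken from 7 lists of 55 genes, of which 54 were found by symbol. In A549 0 of 48 tested genes passed in limma, against 0.554% of all genes lower and 0.122% higher. In H2023 1 of 47 was lower and 0 higher, against 0.583% and 0.327% of all genes, and in H460 4 of 46 were lower and 3 higher, against 6.86% and 7.12%. At an unadjusted p under 0.05 the lists held 7 lower and 0 higher genes in A549 (4.99% and 8.27% of all genes), 10 and 4 in H2023 (6.68% and 10.2%), and 15 and 4 in H460 (16.7% and 17.0%). In the average effect 12 of 45 were lower and 5 higher, against 14.5% and 15.1% of all genes. The list medians in the lines lay between -0.54 and 0.19. The heme synthesis enzymes before ferrochelatase (7 genes) had 0 calls in the lines and medians of -0.02, 0.01 and 0.19 in A549, H2023 and H460. Of these enzymes ALAS1, which catalyzes the first step, was at -0.52, -0.48 and -0.49, and UROS at 0.26, 0.48 and 0.68. Heme transport and binding (11 genes) had 1 call, FLVCR2, a heme and choline transport gene, which rose by 1.599 ± 0.39 in H460 (limma adjusted p = 0.0455). There FLVCR2 was at 0.819 and 1.23 FPKM with control siRNA and at 3.27 and 7.71 FPKM with NRF2 siRNA. It thus met the filter of 1 FPKM through the NRF2 siRNA arm. Its arms overlapped in A549 and were apart, higher with NRF2 siRNA, in H2023. The efflux transporter gene ABCG2 had log2 differences of -1.32, -1.19 and -0.28, and ABCB10 of -0.08, 1.01 and -1.002, none of which passed.

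Among the iron uptake and reduction genes, calls were made in H460, where STEAP1, a metalloreductase family gene, fell by 1.496 ± 0.34 (limma adjusted p = 0.0383) and TFR2, encoding transferrin receptor 2, fell by 1.39 ± 0.35 (adjusted p = 0.0486). CYBRD1, a ferric reductase gene, rose there by 1.403 ± 0.22 (adjusted p = 0.0199). In the same line SLC25A37, the mitochondrial iron importer mitoferrin 1, rose by 1.29 ± 0.21 (adjusted p = 0.0214). Whether these 4 genes respond in A549 and H2023 as in H460 was tested by the F test only for differences, and none passed (adjusted p of 0.265, 0.159, 0.0757 and 0.116 for STEAP1, TFR2, CYBRD1 and SLC25A37). LCN2, an iron-siderophore carrier, was at 0.34 in A549 and 1.01 in H2023, with overlapping arms in both lines, and was not tested in H460. No gene of iron export, chaperones and ferritin turnover passed in a line, with PCBP2, an iron chaperone gene, at -0.36, -0.54 and -0.82, PCBP1 at -0.25, -0.11 and -0.54, and CP, the ferroxidase ceruloplasmin, at -0.03, 0.05 and 1.41. The IRE-binding and iron-sensing genes IREB2 (-0.24, 0.06 and -0.60), ACO1 (-0.18, 0.13 and -0.28) and FBXL5 (-0.17, -0.32 and -0.0042) did not pass either. SLC25A28, a mitochondrial iron importer gene, had differences of -0.38, -0.53 and -0.56, without a call in a line.

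The list of regulators and partners of heme oxygenase held 3 calls, each of a lower gene. MAFG, a small MAF partner of NRF2, fell by 1.65 ± 0.22 in H2023 (limma adjusted p = 0.04998) and fell by 1.58 ± 0.33 in H460 (adjusted p = 0.0332), and was at -1.31 ± 0.18 in A549 (adjusted p = 0.0662). KEAP1 fell by 1.62 ± 0.20 in H460 (adjusted p = 0.0158) and was at -0.65 and -1.27 in A549 and H2023. BACH1, the repressor that competes with NRF2 at the HMOX1 gene, was at -0.15, -1.14 and 0.29 in A549, H2023 and H460 (adjusted p of 0.716, 0.0840 and 0.458). In H2023, the line with the smallest HMOX1 difference by its point estimate, BACH1 was at 19.97 and 19.5 FPKM with control siRNA and at 9.26 and 7.62 FPKM with siRNA 28 and siRNA 30, and any part of BACH1 in the HMOX1 level was not tested.

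**Figure D5:**
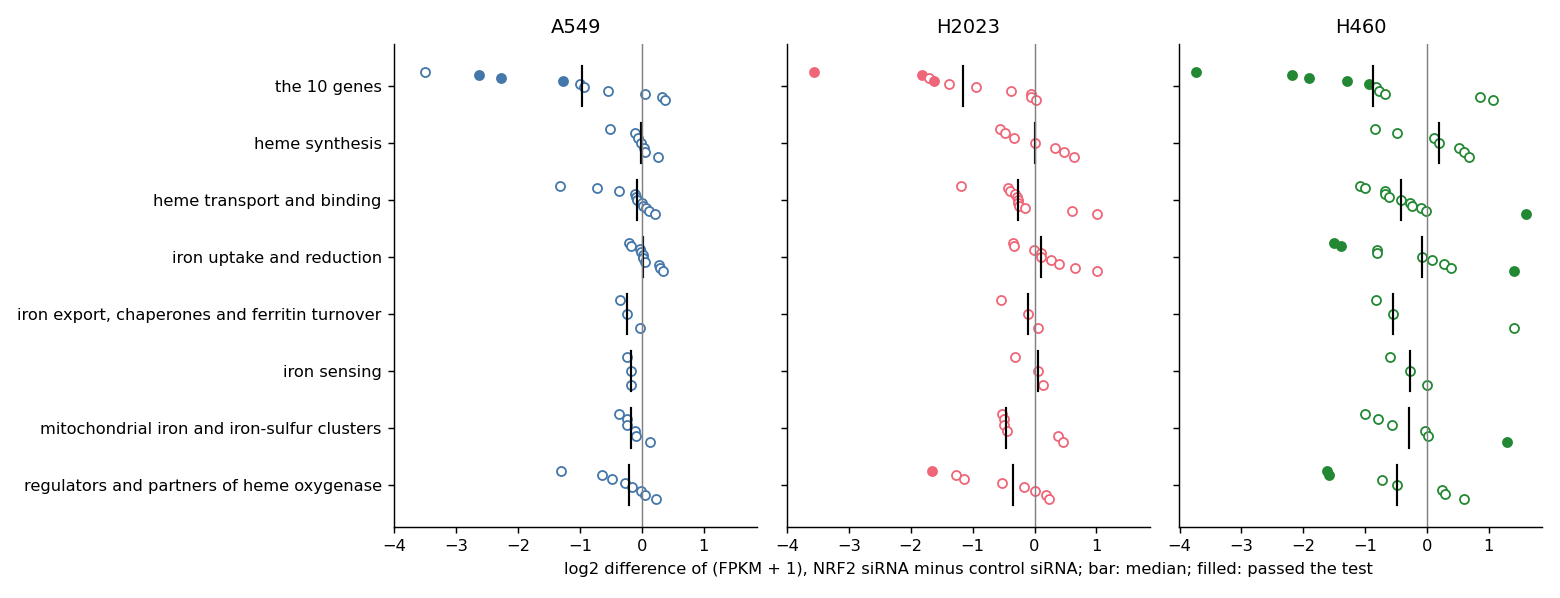
Log2 difference of (FPKM + 1), NRF2 siRNA minus control siRNA, of the 10 genes and of the tested genes of 7 lists in each line, with a bar at the median and filled points for an adjusted p under 0.05. The median bars of the lists stay between -0.54 and 0.19, and those of the 10 genes lie at -0.96, -1.16 and -0.88.

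To describe which genes followed HMOX1, log2 values were centred on each line and correlated over the 12 libraries, for 11561 other genes tested in all lines. All points share the knockdown contrast, so the correlations reflect it, and no p is given. The 5 highest correlations outside the list were those of ALDH3A1 (Pearson r = 0.977), an aldehyde dehydrogenase gene, FTH1P10 (0.951), a ferritin heavy chain pseudogene, TRIM16 (0.949), NEDD4 (0.949), a ubiquitin ligase gene, and TRIM16L (0.948). FTH1P10 shares sequence with FTH1, and TRIM16L with TRIM16, so these values can share reads. Within the list FTH1 (0.934), FECH (0.907), FTL (0.898) and ABCB6 (0.864) were nearest to HMOX1, and BLVRB stood at 0.800. TFRC (0.609) and HMOX2 (0.581) were further away, and SLC40A1 (-0.549) and BLVRA (-0.590) ran opposite. NFE2L2 itself was at 0.876 and took rank 97 among these genes.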

How the data were processed

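The authors sequenced strand-specific libraries and deposited 1 file of FPKM values per library. The study's methods name TopHat and Cufflinks on hg19, whereas the submitters' processing notes name bcl2fastq 2.15.0, cutadapt 1.15, STAR 2.5.3a, SAMtools, Cuffnorm, HTSeq and DESeq2 with hg19 (GRCh37.p13), and which of these made the FPKM values is not given in the sources used here. The 3 deposited DESeq2 tables hold the authors' own comparisons (mean normalised counts, log2 fold changes, p-values) and were not used. Per-library counts were not used here, so no count test was run.

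The deposited FPKM values cover 57815 genes, and 96.1% of identifiers were matched to a symbol (GENCODE lifted to GRCh37). Values under 1e-06 (12710 in all) were set to 0. No pair of libraries had identical values. Genes at 1 FPKM or more in at least 2 of the 4 libraries of a line were tested with limma 3.58.1 (R 4.3.3) on log2(FPKM + 1), with a trend in the prior variance, Benjamini-Hochberg adjustment and a threshold of 0.05. Fold changes on this scale understate the change of low genes. Average effects, differences between lines and pairs of lines came from 1 fit of 12 libraries with 6 group means and a variance weight per line (1.71 in A549, 0.929 in H2023, 0.631 in H460), for genes at 1 FPKM or more in 2 libraries of every line. siRNA 28 was set against siRNA 30 in a fit of the 6 knockdown libraries with line as covariate, and control H2023 and H460 in a fit of their 8 libraries. Replicates of a group had a median SD of 0.160, 0.212 and 0.253 on the log2 scale in A549, H2023 and H460. Read totals are unknown, and relative depth was read from the smallest steps of low FPKM values. The tests were tested on simulated data. Python 3.11.15, pandas 2.3.3 and matplotlib 3.10.9 were used for loading and plots.

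All 10 genes were named, together with the pathway genes past the threshold in at least 1 line or with the 3 largest mean absolute differences in their list, and the 5 genes most like HMOX1. Not every gene that this rule names is reported here. The genes and lists were chosen with earlier results of these data known.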

Additional observations from a re-analysis of the deposited data

How the results depend on the processing

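Alternatives changed the pseudocount to 0.1, the filter, the scaling, the trend, the weights, the samples of a fit and the block, or left out 1 library. With no filter on low values 0 members passed in A549, 0 in H2023 and 0 in H460, as no gene of the whole table did in any line, although 3370, 3661 and 5603 genes had an unadjusted p under 0.05 in limma, and the cause was not tested. In 1 fit of all 12 libraries the members lower were 6 in H2023 and 7 in H460 (HMOX2 and BLVRB added), and 2 members differed between the siRNAs, while calls over all genes also rose, to 2.17% lower in H2023 (from 0.583%), to 16.8% lower in H460 (from 6.86%) and to 9.22% between siRNAs (from 0%). HMOX2 was not called between H2023 and H460 with no filter, with scaling without mitochondrial genes or with no trend (0 members lower in each). The counts of lower members in the average effect stayed between 6 and 8 under every setting run, where 3.91% to 16.6% of all genes were lower.

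Same-numbered libraries of the arms had deviations with correlations of -0.03 (A549), 0.31 (H2023) and 0.16 (H460), and the labels name no shared batch, so they share only a number. With that number as replicate block, 2 members were lower in A549, where HMOX1 was no longer called (limma adjusted p = 0.0572). In H2023 6 members were lower, with HMOX1, FTH1 and FECH added (limma adjusted p of 0.0148, 0.00768 and 0.0461). In H460 5 members were lower and 2 higher (BLVRA and SLC40A1), while the average effect had 8 lower (TFRC added) and 2 higher. Over all genes the block gave 0.468% lower in A549, 2.12% in H2023, 11.4% lower and 12.2% higher in H460, and 15.1% lower and 16.1% higher in the average effect.

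Leaving out 1 library moved the members lower from 0 to 5 in A549, from 0 to 6 in H2023 and from 0 to 8 in H460. Members higher lay between 0 and 1 in H460 and between 0 and 1 in the average effect, members lower in H2023 than in H460 between 0 and 1, and members higher there between 2 and 3. Direction turned for differences that were not called. With scaling without mitochondrial genes HMOX2 in A549 was at -0.0575, TFRC in H2023 at 0.0462, SLC40A1 in H2023 at 0.0422 and FECH between H2023 and H460 at 0.0792. Without single libraries HMOX2 in A549 lay between -0.0518 and 0.147, SLC40A1 in A549 between -0.0616 and 0.818, TFRC in H2023 between -0.275 and 0.174, SLC40A1 in H2023 between -0.321 and 0.21, and BLVRA in H2023 between -0.27 and 0.327. Between H2023 and H460 BLVRA lay between -0.10 and 0.404 and TFRC between -0.17 and 0.276. Between siRNAs, where leaving out a library removes its line, HMOX1 lay between -0.588 and 0.0076, FECH between -0.403 and 0.0316, ABCB6 between -0.17 and 0.0467 and SLC40A1 between -0.437 and 0.63. Duplicate groups limit every count, and no outlier could be assessed within groups of 2.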
